A study of Homo sapiens with 11 samples.

Results

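The 9 genes described here belong to the NRF2 antioxidant and detoxification system. They are NQO1, HMOX1, GCLM, GCLC, TXNRD1, SRXN1, AKR1C1, AKR1B10 and KEAP1. They were taken by symbol through the Entrez identifier from the RNA-Seq count tables of PC3 and DU145 prostate cancer cells, and all 9 were found among 28395 genes listed. PC3 is a human line derived from a bone metastasis of prostate cancer and DU145 is a human line derived from a brain metastasis. Cells of each line carried either a lentivirus for stable overexpression of ST6GAL1, the enzyme that adds α2-6 linked sialic acid to glycoproteins, or negative-control lentiviral particles, so that every group was transduced. Each group had 3 libraries in the count tables analysed, except DU145 with ST6GAL1 overexpression, which had 2, numbered replicates 2 and 3. The study describes the libraries as biological repeats, of stably transduced populations, so p-values measure the spread between such repeats.

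NRF2, encoded by NFE2L2, is the transcription factor that drives this gene set. In unstressed cells KEAP1 holds NRF2 for ubiquitination by a CUL3 ligase and for degradation. Oxidants and electrophiles modify KEAP1, and NRF2 then accumulates, pairs with small MAF proteins and binds antioxidant response elements near its targets. BACH1 competes for the same elements and represses them. NRF2 is regulated mainly as a protein, which RNA-Seq does not measure. Of the genes examined, NQO1 reduces quinones, HMOX1 breaks down heme, and GCLC and GCLM are the catalytic and modifier subunits of the enzyme that limits glutathione synthesis. TXNRD1 keeps thioredoxin reduced, SRXN1 repairs over-oxidised peroxiredoxins, and AKR1C1 and AKR1B10 are aldo-keto reductases that reduce ketosteroids, aldehydes and other carbonyls. KEAP1 is the inhibitor of the system.

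The antioxidant response element is shown here because it is the sequence through which NRF2 reaches its targets. RefSeq windows (GRCh38.p14) of 250 bases before to 50 bases after a gene start were available for 7 of the 9 genes, in 9 windows, as TXNRD1 and KEAP1 have 2 listed starts each. HMOX1 and AKR1B10 had no entry. The core letters TGACNNNGC (N stands for any base), read on both strands, were in 4 of these 9 windows and in 13.3% of all 35116 windows. The longer form, the same core followed by an A, was in 3 of the 9 windows, in 7 of 63 windows (11.1%) of other NRF2 pathway genes and in 3.18% of all windows. The 3 longer matches are given with 10 bases on each side and the matched letters in capitals, read 5′ to 3′ on the strand that carries the letters.
GCLM, chr1:93909446-93909475, plus strand: tggaagacaaTGACTAAGCAgaaatcgtag
TXNRD1, chr12:104286919-104286948, minus strand: agagtcagaaTGACAAAGCAgaaatccact
KEAP1, chr19:10502784-10502813, plus strand: caggtcaccaTGACTAAGCAgagccgggcg
The letters lie 26 to 35 bases upstream of the start of GCLM, outside its MANE Select transcript in GENCODE v44. In TXNRD1 they lie 94 to 103 bases upstream of the second listed start, and in KEAP1 23 to 32 bases upstream of the second listed start. Both of these windows fall in an intron of the MANE Select transcript. Exons of other annotated transcripts overlap the window in 1 of 4 transcripts of GCLM, 3 of 19 of TXNRD1 and 1 of 10 of KEAP1. A match describes the letters only, and binding was not measured. Sequence outside these windows was not searched, so a window without the letters does not show that a gene lacks the element.

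Counts on genes totalled 13194485 to 18201359 per library, and the floor of 3 counts was 0.165 to 0.227 CPM, which are counts scaled to a common library size. Such floors cover counting error only. Levels are given below as normalized CPM, scaled with trimmed mean of M-values (TMM) factors over all 11 libraries. ST6GAL1 was 2.09 to 3.06 normalized CPM in PC3 control and 31.7 to 33.3 in PC3 overexpression libraries, and 11.4 to 14.3 against 298.5 and 346 in DU145. The 5 epithelial markers were present in every group, with summed levels of 863.6 to 897 normalized CPM in PC3 control, 890.5 to 899 in PC3 overexpression, 1301 to 1339 in DU145 control and 1043 to 1175 in DU145 overexpression. The prostate markers KLK3 and KLK2 had no counts in any library. Of 13 fibroblast, leukocyte and endothelial markers, the summed levels of a list reached at most 61.8 normalized CPM in any library. In bulk samples a lower level can come from fewer cells of a type or from less RNA per cell, and these cannot be told apart.

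The 2 DU145 overexpression libraries differed from each other in a way that followed the GC content of the transcripts. The median log2 difference of replicate 2 from replicate 3 was 0.14 in the first of 10 equal classes of genes by GC content, the lowest. It was −0.53 in the last, the highest, a span of 0.68. The spans of the 9 libraries of the other groups, each against the other libraries of its group, were 0.01 to 0.20. With 2 libraries the difference is the same seen from either, so it does not show which of them departs. KEAP1, whose transcript has 60.2% GC, lies in class 9, with a median difference of −0.33, and its own difference was −0.999. The other 8 genes lie in classes 1 to 8 and differed by 0.06 to 0.24 between the 2 libraries. For the genes named, the DU145 change without replicate 2 is given beside the change over both, although the comparison does not single out that library.

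In control cells the NRF2 targets were set at different levels in the 2 lines. 7 of the 9 genes were 2.72-fold to 5.08-fold higher in DU145 than in PC3, and the inhibitor KEAP1 was 3.98-fold lower. AKR1C1 had a log2 difference of 0.28 (standard error, SE, 0.29, adjusted p = 0.367). Both lines differ in most genes, so this comparison has a high background: 88.2% of 14246 genes tested had an adjusted p under 0.05 in edgeR's quasi-likelihood test with Benjamini-Hochberg adjustment, 44.1% were higher and 44.1% lower in DU145. With an absolute log2 fold change over 0.58 as well, 64.6% passed, 31.8% higher and 32.8% lower. The median log2 difference was 1.62 for the 9 genes and 0.00 for all genes tested. Line, culture history and library series cannot be told apart in this comparison.

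NQO1, on chromosome 16 (69709401 to 69726560, coordinates from RefSeq for GRCh38), was read at 288, 267 and 298 normalized CPM in the PC3 control libraries and at 1446, 1509 and 1363 in the DU145 control libraries. Every DU145 library was above every PC3 library, and NQO1 had the greatest difference of the 9 genes, with a log2 fold change of 2.35 (SE 0.0542, adjusted p = 1.69e-24). SRXN1 on chromosome 20 (646615 to 653200) followed, with 138, 135 and 137 in PC3 and 657, 681 and 596 in DU145, a log2 fold change of 2.24 (SE 0.0516, adjusted p = 1.52e-24). The RNAs of the quinone reductase and the peroxiredoxin repair enzyme were thus both about 5 times as abundant in DU145. How many of all genes lack overlap between the lines was not counted, here or below, so a lack of overlap adds nothing to the tests.

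The glutathione synthesis genes were intermediate. GCLC on chromosome 6 (53497341 to 53545101) had 77.2, 69.7 and 73.7 normalized CPM in PC3 control and 260.0, 268 and 243 in DU145 control libraries, a log2 fold change of 1.81. GCLM on chromosome 1 (93885199 to 93909430) had 47.2, 48.8 and 45.6 against 143, 144 and 147, a log2 fold change of 1.62. The RNAs of both subunits of the enzyme were therefore higher in every DU145 library, which was likewise not set against the share of all genes. HMOX1 on chromosome 22 (35381096 to 35394207) had 8.73, 10.2 and 10.7 in PC3 and 32.5, 35.3 and 34.8 in DU145, a log2 fold change of 1.80 (SE 0.0859). TXNRD1 on chromosome 12 (104215779 to 104350307) was the most abundant of the 9 genes, at 1116, 1124 and 1124 in PC3 and 3196, 3007 and 2917 in DU145, a log2 fold change of 1.44. EID3, a gene inside the TXNRD1 locus, had 924 counts over all libraries, and its reads were not separated by strand here.

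The aldo-keto reductases were near the limit of detection in control cells. AKR1B10 on chromosome 7 (134527567 to 134541412) had 10, 12 and 15 counts in the PC3 control libraries and 29, 43 and 30 in the DU145 control libraries, a log2 fold change of 1.60 (SE 0.277, adjusted p = 5.91e-06). AKR1C1 on chromosome 10 (4963415 to 4983283) had 13, 19 and 20 counts in PC3 and 18, 23 and 16 in DU145, and the lines overlapped. KEAP1 on chromosome 19 (10486125 to 10503356) went the other way. It had 117, 121 and 121 normalized CPM in PC3 control and 27.9, 27.5 and 34.99 in DU145 control libraries, a log2 fold change of −1.99 (SE 0.0677, adjusted p = 7.56e-20). With the trend on GC content removed the KEAP1 difference was −1.53 (adjusted p = 2.78e-21).

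**Figure D1:**
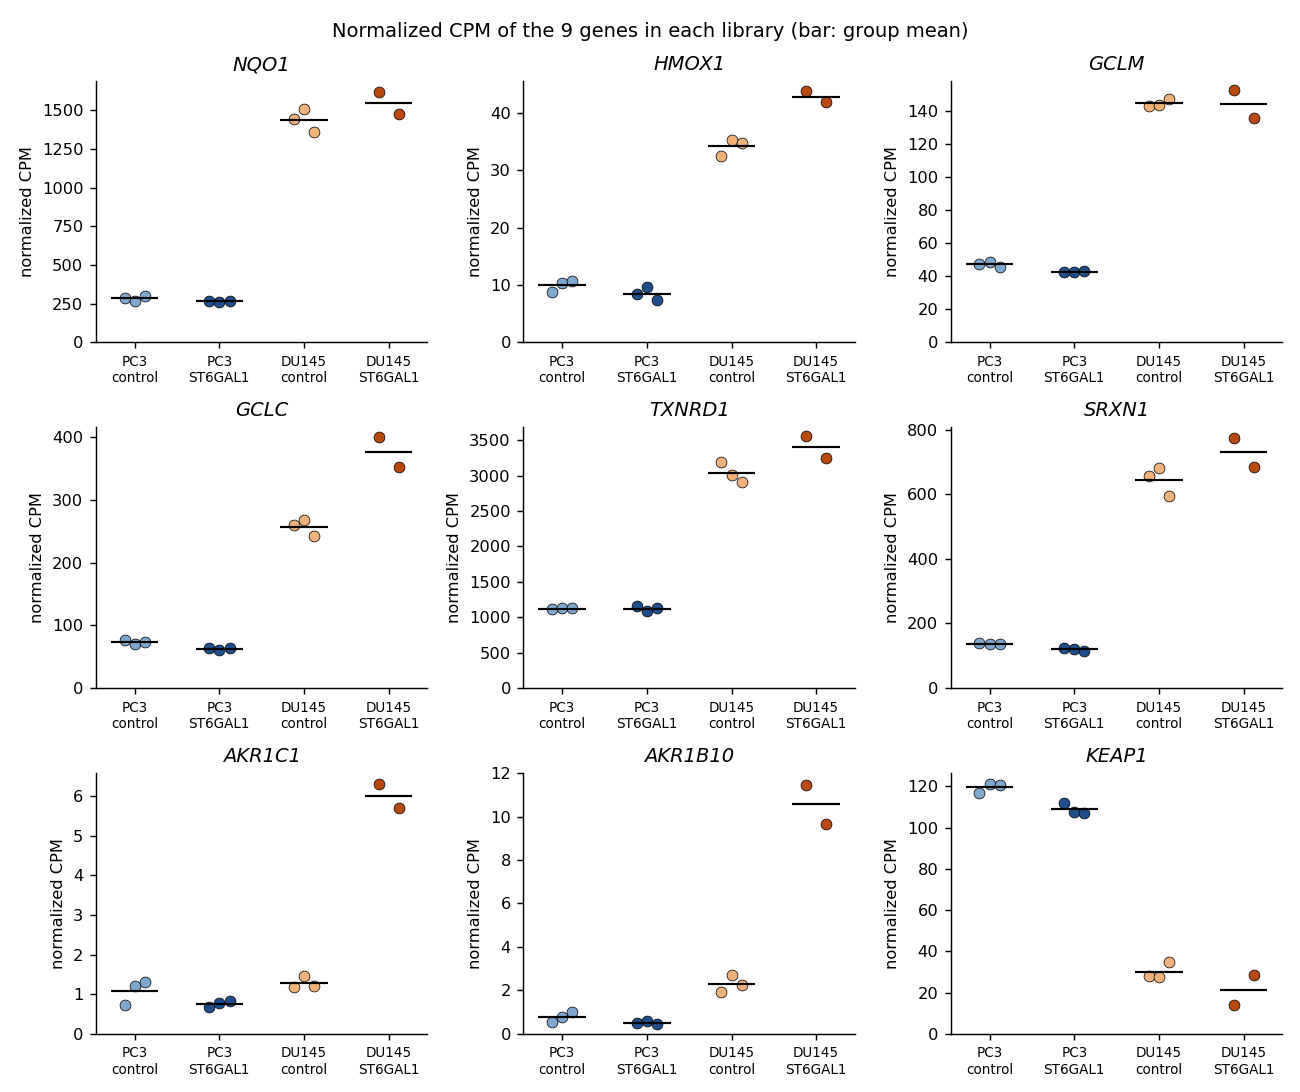
Normalized CPM (vertical axis, from 0, a scale of its own in each panel) of the 9 genes in each library of the 4 groups (horizontal axis), with 1 point per library and a bar at the group mean. NQO1, HMOX1, GCLM, GCLC, TXNRD1 and SRXN1 are higher in all DU145 than in all PC3 libraries and KEAP1 is lower, and AKR1C1 and AKR1B10 stand out in the 2 DU145 overexpression libraries. The share of all genes that separate in this way was not counted.

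Per kilobase of the MANE Select transcript, the genes can be ordered by abundance within a line. In PC3 control cells the order of the mean CPM per kilobase was TXNRD1 (291 ± 1.15, SD, n = 3), NQO1 (113 ± 6.40), SRXN1 (54.0 ± 0.671), KEAP1 (46.6 ± 0.945), GCLC (19.4 ± 0.992), GCLM (9.67 ± 0.332), HMOX1 (6.36 ± 0.661), AKR1B10 (0.473 ± 0.129) and AKR1C1 (0.165 ± 0.0470). The DU145 order was the same apart from KEAP1, which moved from the fourth to the seventh place. There TXNRD1 stood at 787.6 ± 36.9 CPM per kilobase (SD, n = 3) and NQO1 at 571 ± 29.1, and KEAP1 (11.7 ± 1.65) lay between HMOX1 (21.99 ± 0.948) and AKR1B10 (1.42 ± 0.252). No neighbours in either order had overlapping ranges over the control libraries. The transcript form in use was not measured, and a shorter or longer form would move a gene in this order.

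NFE2L2 was higher in DU145 control cells by less than the 7 higher genes, and BACH1 differed little. NFE2L2, which encodes NRF2, had 80.4, 77.9 and 74.5 normalized CPM in PC3 control and 132, 129 and 119.9 in DU145 control libraries, a log2 fold change of 0.71 (SE 0.0514, adjusted p = 3.67e-13). Over 11 alternative fits, removal of the GC trend among them, it ranged from 0.497, inside the fold threshold, to 0.753. The repressor BACH1 had 53.1 to 57.1 normalized CPM in PC3 and 58.3 to 63.0 in DU145, a log2 fold change of 0.13 (adjusted p = 0.0344) that did not pass DESeq2 (adjusted p = 0.0783). Over the same 11 alternative fits BACH1 ranged from −0.149 to 0.163, so its direction was not stable. Of 59 other genes of the NRF2 pathway, 56 could be tested, and 38 were higher and 11 lower in DU145, 26 and 7 of them past the fold threshold. In all, 87.5% of the 56 passed the test, against 88.2% of all genes. With the fold threshold as well, 58.9% passed, against 64.6% of all genes. Of all genes, 44.1% were higher and 44.1% lower.

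Among these other pathway genes the largest differences by p were in carbonyl reduction, glutathione and iron. AKR1B1, which reduces glucose and other aldehydes, had 0.840 to 1.76 normalized CPM in PC3 and 172 to 193 in DU145 control libraries, a log2 fold change of 7.04 (SE 0.106). GSR, which regenerates glutathione, had 71.9 to 77.9 against 554 to 594, and FTL, the ferritin light chain, had 511 to 524 against 3414 to 3623. These were log2 fold changes of 2.98 and 2.78. PRDX6, a peroxiredoxin with phospholipase activity, ran in the opposite direction, with 803 to 834 normalized CPM in PC3 and 191 to 215 in DU145. GSTP1, a glutathione transferase, and MAFF, a small MAF partner of NRF2, were also lower in DU145, with log2 fold changes of −1.61 and −2.50. The system was therefore not uniformly higher in DU145.

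**Figure D2:**
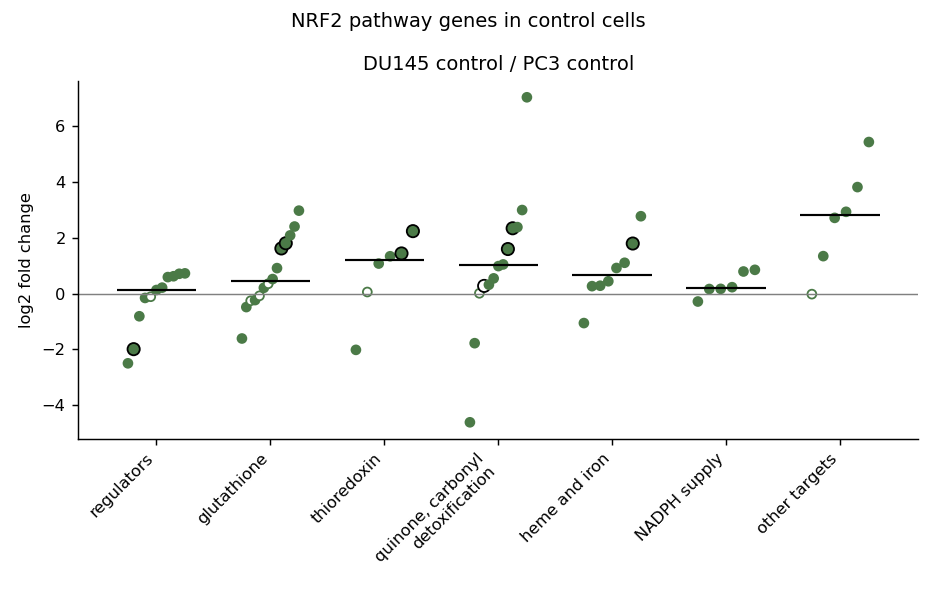
Log2 fold change of NRF2 pathway genes between DU145 control and PC3 control cells (vertical axis) by class (horizontal axis), with 1 point per tested gene, the 9 genes outlined in black, filled points for an adjusted p under 0.05 and a bar at the median of all tested genes of the class. CYP4F11, with no count in any PC3 control library, is left out of the points, KEAP1 lies at −1.99 among the regulators and AKR1B1 reaches 7.04.

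With ST6GAL1 overexpression in PC3 cells, the NRF2 genes shifted slightly downwards. Of 8 genes that could be tested, 5 fell (NQO1, GCLM, GCLC, SRXN1 and KEAP1), none rose, and HMOX1, TXNRD1 and AKR1C1 did not pass the test. The folds of the 5 were 0.850 to 0.928. Among all 13544 genes tested in PC3, 18.5% were lower and 18.8% higher at an adjusted p under 0.05, 37.3% in all. None of the 8 passed the fold threshold, which 5.38% of all genes did (3.61% higher, 1.76% lower), and the count was also 0 with limma-voom and DESeq2. The median log2 fold change was −0.17 for the 8 genes and −0.00 for all genes. AKR1B10, with 7 to 15 counts in each PC3 library, was below the expression filter. In the same libraries, of 5 epithelial markers CDH1 (2.59-fold) and KRT19 rose and KRT8 fell, and of 2 fibroblast markers tested COL3A1 rose (3.95-fold) and COL1A1 fell. The summed fibroblast markers were 28.6 to 30.7 normalized CPM in control and 30.7 to 35.8 in overexpression libraries, and the part of these markers in the results was not tested.

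GCLC had the largest of these changes. It had 77.2, 69.7 and 73.7 normalized CPM in the control and 63.9, 60.4 and 63.6 in the overexpression libraries, a log2 fold change of −0.24 (SE 0.0435, adjusted p = 2.99e-05). GCLM, the partner subunit, had 47.2, 48.8 and 45.6 against 42.7, 42.3 and 43.2, a log2 fold change of −0.14 (SE 0.0491, adjusted p = 0.0194). All overexpression libraries lay below all control libraries for both subunits. The share of all genes without overlap was not counted, here or below, so a lack of overlap adds nothing to the tests. The call for GCLM was lost with DESeq2 (adjusted p = 0.1004), without control replicate 2 (0.0829), without overexpression replicate 2 (0.0717) and with the trend on GC content removed (0.0685).

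SRXN1 had 138, 135 and 137 normalized CPM in PC3 control and 125, 119 and 114 in overexpression libraries, a log2 fold change of −0.20 (SE 0.0350, adjusted p = 1.70e-05). NQO1 had 288, 267 and 298 against 264, 263 and 264, a log2 fold change of −0.11 (SE 0.0308, adjusted p = 0.00474), and KEAP1 had 117, 121 and 121 against 112, 108 and 107, a log2 fold change of −0.13 (SE 0.0348, adjusted p = 0.00205). Their groups did not overlap, which was not set against the share of all genes. Without control replicate 3 the adjusted p of NQO1 was 0.0897.

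HMOX1 and TXNRD1 showed overlapping groups in PC3. HMOX1 had 8.73, 10.2 and 10.7 normalized CPM in control and 8.43, 9.65 and 7.32 in overexpression libraries, a log2 fold change of −0.21 (SE 0.109, adjusted p = 0.131), which reached 0.0435 without overexpression replicate 2 and 0.0442 without control replicate 1. TXNRD1 had 1116, 1124 and 1124 against 1151, 1092 and 1123, a log2 fold change of 0.00 (SE 0.0236, adjusted p = 0.98). AKR1C1 was read with 13, 19 and 20 counts in control and 10, 14 and 13 in overexpression libraries, a log2 fold change of −0.48 (SE 0.320, adjusted p = 0.251). A change of that size in AKR1C1, read from at most 20 counts per library, did not pass the test.

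More regulators of NRF2 fell than rose in PC3. Of 11 regulators tested, 72.7% passed the test, against 37.3% of all genes in PC3 (18.5% lower and 18.8% higher): 6 were lower (KEAP1, NFE2L2, CUL3, BACH1, MAFF and SQSTM1) and 2 higher (MAFK and NFE2L1), and the median log2 fold change was −0.13. The call for NFE2L1 was lost without overexpression replicate 2 (adjusted p = 0.0714). NFE2L2 had 80.4, 77.9 and 74.5 normalized CPM in control and 72.8, 70.5 and 67.0 in overexpression libraries, a log2 fold change of −0.15 (SE 0.0419, adjusted p = 0.00443, and 0.0574 without overexpression replicate 3). BACH1 had 56.3, 57.1 and 53.1 against 43.998, 43.996 and 41.6, a log2 fold change of −0.36 (SE 0.0482, adjusted p = 7.14e-08). The RNA of inhibitor, activator and repressor was thus lower in each case.

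In DU145 cells, ST6GAL1 overexpression went with higher levels of part of the set. HMOX1, GCLC, AKR1C1 and AKR1B10 rose, none of the 9 genes fell past the test, and NQO1, GCLM, TXNRD1, SRXN1 and KEAP1 did not pass it. AKR1C1 and AKR1B10, with folds of 4.66 and 4.59, also passed the fold threshold. Among all 13676 genes tested in DU145, 10.7% were higher and 9.42% lower at an adjusted p under 0.05, 20.1% in all, and 8.94% also passed the fold threshold, 4.33% higher and 4.61% lower. The median log2 fold change was 0.19 for the 9 genes and −0.00 for all genes. Leaving out 1 overexpression library leaves 1 in that group, so counts of genes passing are not given for those fits. The log2 fold change of KEAP1 was −0.08 without replicate 2 and −1.08 without replicate 3. In the same libraries 4 of the 5 epithelial markers fell and 1 rose, and the endothelial marker PECAM1 rose from 3, 7 and 6 counts to 12 and 26. Neither of 2 leukocyte markers tested nor the 1 fibroblast marker tested passed the test, and the part of the markers in these results was not tested.

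AKR1B10 had 1.92, 2.73 and 2.24 normalized CPM in the control libraries (29, 43 and 30 counts) and 11.5 and 9.65 in the overexpression libraries (178 and 173 counts). AKR1C1 had 1.19, 1.46 and 1.196 normalized CPM in the control (18, 23 and 16 counts) and 6.32 and 5.69 in the overexpression libraries (98 and 102 counts). For both reductases each overexpression library was more than 3 times every control library. The log2 fold changes were 2.20 for AKR1B10 (SE 0.185, adjusted p = 2.20e-06) and 2.22 for AKR1C1 (SE 0.211, adjusted p = 5.81e-06). They were 2.06 and 2.13 without overexpression replicate 2, and 2.06 to 2.33 and 2.13 to 2.31 when each library was left out in turn.

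AKR1C1 has near-identical neighbours on chromosome 10, and its counts are uncertain for that reason. Of the 75-base windows of its MANE Select transcript, 16.5% also occurred in AKR1C2 and 1.07% in AKR1C3, and of those of AKR1C2 33.9% occurred in AKR1C1. AKR1C3 (5048781 to 5107686), a reductase that makes testosterone from androstenedione, shared 6.21% of its windows with AKR1C1 and 10.7% with AKR1C2. AKR1C3 had 11.2, 9.32 and 9.20 normalized CPM in DU145 control and 47.04 and 48.1 in overexpression libraries, a log2 fold change of 2.27 (SE 0.113, adjusted p = 2.07e-08, and 2.27 without overexpression replicate 2). AKR1C2 had 21, 14 and 3 counts in control and 101 and 75 in overexpression libraries, a log2 fold change of 2.63 (SE 0.447, adjusted p = 0.00581, and 0.0542 without control replicate 2), which was 2.27 without overexpression replicate 2. The 3 AKR1C genes therefore rose together, and AKR1C3 did so at a higher level in CPM. AKR1B10 shared 4.66% of its windows with AKR1B15 and none with AKR1B1.

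GCLC had 260.0, 268 and 243 normalized CPM in DU145 control and 399.7 and 353 in overexpression libraries, a log2 fold change of 0.56 (SE 0.0805, adjusted p = 0.000242). Its fold of 1.47 lies just inside the threshold of 1.49, and 1 library decides its side: the log2 fold change was 0.45 without overexpression replicate 2 and 0.65, past the threshold, without replicate 3. The adjusted p stayed under 0.05 in both. The modifier subunit GCLM showed no such difference, with 143, 144 and 147 against 153 and 136, a log2 fold change of 0.00 (SE 0.0772, adjusted p = 0.996). The control range of GCLM lay between its 2 overexpression libraries, and without replicate 2 the value was −0.10. HMOX1 had 32.5, 35.3 and 34.8 against 43.8 and 42.0, a log2 fold change of 0.33 (SE 0.0920, adjusted p = 0.0205). Without overexpression replicate 2 it was 0.29 (adjusted p = 0.0474). The groups of HMOX1 did not overlap, but its adjusted p was 0.0610 to 0.138 when any 1 of the 3 control libraries was left out.

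For NQO1 the DU145 control libraries had 1446, 1509 and 1363 normalized CPM and the overexpression libraries 1622 and 1479.7, a log2 fold change of 0.11 (SE 0.0854, adjusted p = 0.390). The thioredoxin genes did not pass the test either. TXNRD1 had 3196, 3007 and 2917 against 3565 and 3251, a log2 fold change of 0.17 (SE 0.0897, adjusted p = 0.207), and SRXN1 had 657, 681 and 596 against 777 and 685, a log2 fold change of 0.19 (SE 0.0872, adjusted p = 0.155). Both overexpression libraries lay above all control libraries for these 2 genes, and neither passed the test. Without overexpression replicate 2 the log2 fold changes fell to 0.0332 for NQO1, 0.0905 for TXNRD1 and 0.0803 for SRXN1 (adjusted p = 0.848, 0.583 and 0.587). Without replicate 3 they were 0.18, 0.24 and 0.28 (adjusted p = 0.140, 0.0720 and 0.0196), so that only SRXN1 passed the test there.

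For KEAP1 the 2 DU145 overexpression libraries lay far apart. It had 27.9, 27.5 and 34.99 normalized CPM in control and 14.0 in replicate 2 and 28.6 in replicate 3 of overexpression, a log2 fold change of −0.48 (SE 0.332, adjusted p = 0.398). Replicate 3 lay within the control range and replicate 2 below it. Without replicate 2 the log2 fold change was −0.08 (adjusted p = 0.740) and without replicate 3 it was −1.08 (adjusted p = 2.10e-05). The 20 genes nearest to KEAP1 on chromosome 19 that were tested had a median log2 fold change of −0.35, where those around the other 8 genes had medians of −0.01 to 0.16. With the trend on GC content removed KEAP1 stood at −0.31 (adjusted p = 0.239). The part of GC content in its value was not tested beyond this.

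**Figure D3:**
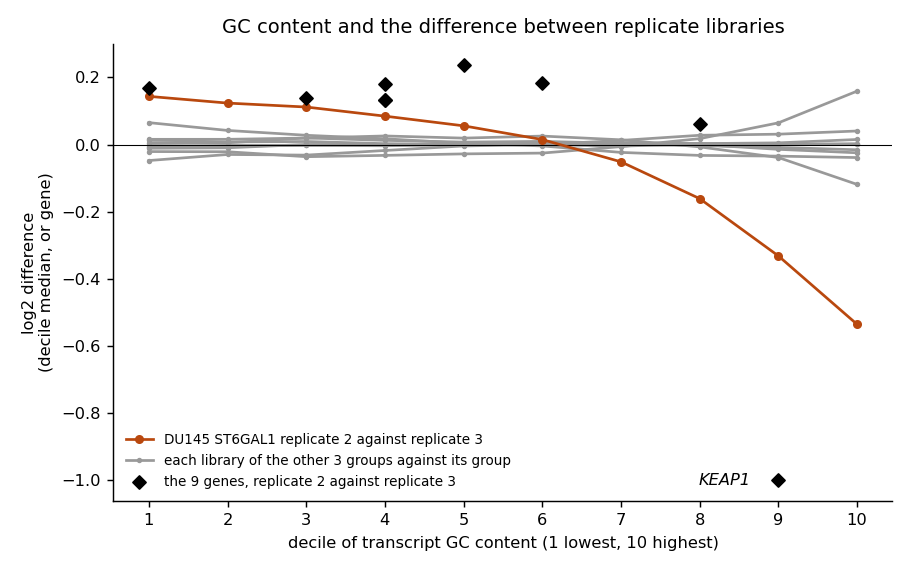
Log2 difference (vertical axis) against the class of transcript GC content (horizontal axis, 10 equal classes of genes, 1 lowest). Lines give the median over genes of each library against the other libraries of its group and diamonds the 9 genes in DU145 overexpression replicate 2 against replicate 3, where the line falls from 0.14 to −0.53 and KEAP1 lies at −0.999.

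Of the upstream factors in DU145, BACH1 rose and NFE2L2 did not pass the test. NFE2L2 had 132, 129 and 119.9 normalized CPM in control and 158 and 133 in overexpression libraries, a log2 fold change of 0.20 (SE 0.0868, adjusted p = 0.121). It was 0.0592 without overexpression replicate 2 (adjusted p = 0.659) and 0.33 without replicate 3 (adjusted p = 0.00286). BACH1 had 63.0, 58.3 and 60.6 against 95.2 and 91.8, a log2 fold change of 0.63 (SE 0.0787, adjusted p = 7.03e-05). BACH1, the repressor, therefore rose by a fold of 1.55 in the same libraries in which AKR1C1, AKR1B10 and GCLC rose. Its log2 fold change was 0.59 without overexpression replicate 2, and 0.56, inside the fold threshold, with the trend on GC content removed.

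**Figure D4:**
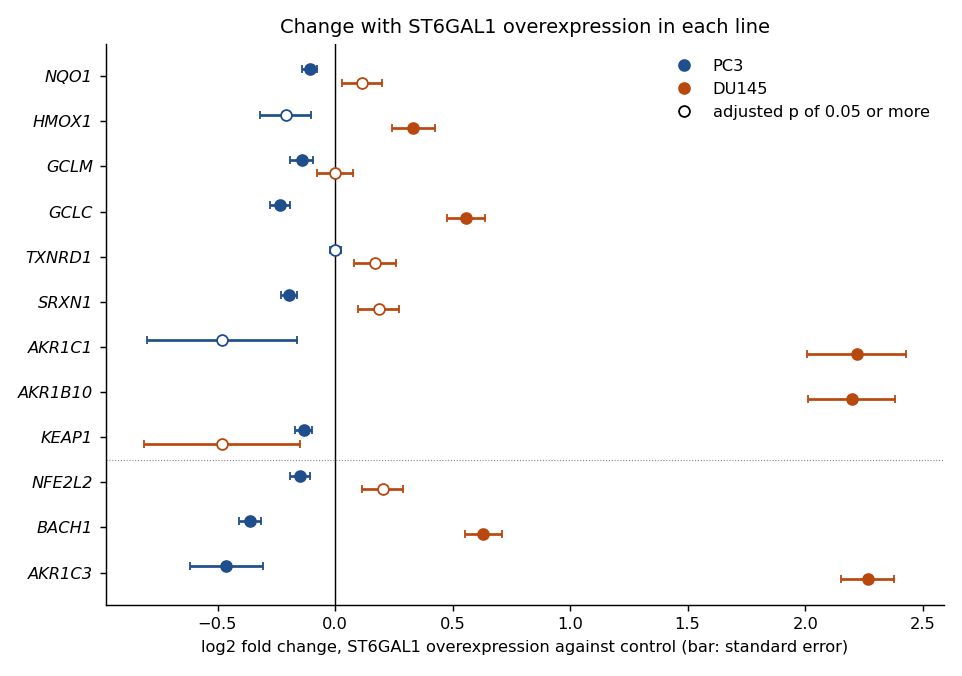
Log2 fold change with ST6GAL1 overexpression (horizontal axis, bars give the standard error) of the 9 genes, and below the dotted line NFE2L2, BACH1 and AKR1C3, in PC3 (blue) and DU145 (orange), with open points for an adjusted p of 0.05 or more. AKR1B10 was not tested in PC3, the PC3 values lie at or below 0.00 and the aldo-keto reductases in DU145 lie above 2.

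The change differed between the lines for 5 of the 9 genes. In a fit over all 11 libraries with a term for the difference, the changes of HMOX1, GCLC, SRXN1, AKR1C1 and AKR1B10 were higher in DU145 than in PC3, none was lower past the test, and NQO1, GCLM, TXNRD1 and KEAP1 did not pass it. Among all 14952 genes tested, 10.4% had a higher change in DU145 and 9.36% a lower one, 19.7% in all. With a log2 difference over 0.58 as well, 3.86% were higher and 4.86% lower, 8.72% in all. The median difference was 0.38 for the 9 genes and −0.01 for all genes. Without either DU145 overexpression library only 1 is left in that group, so the number of the 9 genes passing there is not read as a result.

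The greatest differences were those of the aldo-keto reductases, with 2.74 on the log2 scale for AKR1B10 (SE 0.398, adjusted p = 5.30e-05) and 2.69 for AKR1C1 (SE 0.367, adjusted p = 2.57e-05). In PC3 both had at most 20 counts in every library, so the size of these differences rests on few counts there. AKR1B10 was below the expression filter in the fit of PC3 alone, so its change in PC3 was not tested by itself. GCLC had a difference of 0.78 (SE 0.0859, adjusted p = 2.00e-06), HMOX1 of 0.54 (SE 0.142, adjusted p = 0.0108) and SRXN1 of 0.38 (SE 0.0861, adjusted p = 0.00393). For GCLC both lines passed their own test in opposite directions. KEAP1 had a difference of −0.34 (SE 0.3001, adjusted p = 0.491), which was 0.06 without DU145 overexpression replicate 2 (adjusted p = 0.809) and −0.97 without replicate 3 (adjusted p = 6.72e-07).

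The changes of BACH1 and NFE2L2 were also higher in DU145 than in PC3. The difference was 0.99 for BACH1 (SE 0.0830, adjusted p = 6.31e-08) and 0.34 for NFE2L2 (SE 0.0942, adjusted p = 0.0141, and 0.0693 without DU145 overexpression replicate 2). AKR1C3, with 5.04, 5.18 and 4.17 normalized CPM in PC3 control and 2.92, 3.58 and 3.91 in PC3 overexpression libraries, fell in PC3 (log2 fold change −0.46, adjusted p = 0.0177) and had a difference of 2.72 (adjusted p = 2.75e-09). In PC3 the call for AKR1C3 was lost with DESeq2 (adjusted p = 0.0988) and without overexpression replicate 1 (0.101), control replicate 1 (0.0601) or control replicate 2 (0.0636). AKR1C2 had at most 3 counts in any PC3 library and was not tested there. Its difference between the lines was 1.95 (SE 1.75, adjusted p = 0.486) and did not pass the test.

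The other genes of the pathway gave a wider view. Of the 59, 54 could be tested in PC3, and 10 rose and 13 fell, 42.6% against 37.3% of all genes, and 2 rose past the fold threshold, 3.70% against 5.38%. The PC3 counts were thus near those of all genes. In DU145 58 could be tested, and 18 rose and 4 fell, 37.9% against 20.1% of all genes, with 12 and 1 of them past the fold threshold, 22.4% against 8.94%. The median log2 fold change was −0.04 in PC3 and 0.15 in DU145, and −0.00 over all genes in either line. The DU145 counts rest on 2 overexpression libraries, and counts with 1 of these left out are not read here.

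By class, the DU145 counts are read against 10.7% of all genes higher and 9.42% lower. Of 15 genes of quinone and carbonyl detoxification tested there, the 3 genes of that class among the 9 included, 8 rose and 1 fell, and the median change was 0.53 on the log2 scale. Of 15 genes of glutathione synthesis, conjugation and export, GCLC and GCLM included, 7 rose and 2 fell, with a median of 0.39. None of 6 thioredoxin genes passed edgeR's test in DU145, and none passed limma-voom or DESeq2, although 2 had an unadjusted p under 0.05. Of 8 heme and iron genes 1 rose, which was HMOX1, and of 6 NADPH genes 2 rose. Of 11 regulators 1 rose and 1 fell, and of the 6 remaining genes of the pathway 3 rose and none fell.

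Named examples show these classes. SLC7A11, the cystine importer that feeds glutathione synthesis, had 136, 132 and 143 normalized CPM in DU145 control and 257 and 237 in overexpression libraries, a log2 fold change of 0.86 (SE 0.0753, adjusted p = 3.09e-06, and 0.78 without overexpression replicate 2). In PC3 it went from 169, 151 and 163 to 126, 130.4 and 132, a log2 fold change of −0.32 (SE 0.0353, adjusted p = 1.26e-09), and the difference between the lines was 1.17 (adjusted p = 2.96e-09). SLC7A11 and GCLC thus showed the same opposite movement in the 2 lines. GSTA4, a glutathione transferase for lipid aldehydes, had 23.5, 22.1 and 20.6 normalized CPM in DU145 control and 52.0 and 48.7 in overexpression libraries, a log2 fold change of 1.19 (adjusted p = 1.82e-06), and of 1.13 without replicate 2. UGDH, which makes UDP-glucuronate for conjugation, had 470 to 481 against 851 and 812, and its change differed from that in PC3 by 0.84 (adjusted p = 3.60e-08), and by 0.80 without replicate 2.

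Some pathway genes moved the other way. ALDH3A1, an aldehyde dehydrogenase, had 75.2, 102 and 88.8 normalized CPM in PC3 control and 134, 130.3 and 134 in PC3 overexpression libraries, a log2 fold change of 0.59 (adjusted p = 0.0207). Its call in PC3 was lost with the replicate number as a block and without any 1 overexpression library or control replicate 3, with adjusted p of 0.0509 to 0.0761. In DU145 it had 52, 55 and 52 counts in control and 17 and 23 in overexpression libraries, a log2 fold change of −1.58 (adjusted p = 0.000400), and of −1.49 without replicate 2. The difference of −2.16 (adjusted p = 4.37e-05) was opposite in sign to those of the aldo-keto reductases. ABCC3, an exporter of conjugates, rose in both lines, from 152 to 169 up to 252 to 265 in PC3 (log2 fold change 0.69) and from 149 to 158 up to 191 and 209 in DU145 (0.39, and 0.44 without replicate 2), with a difference of −0.30 (adjusted p = 0.00986). The change of GSTP1 differed by −0.41 (adjusted p = 0.0189), by −0.25 without DU145 overexpression replicate 2, by −0.63 without replicate 3, and by −0.19 with the trend on GC content removed. That call was lost without DU145 control replicate 2 (adjusted p = 0.0550) or 3 (0.0540).

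**Figure D5:**
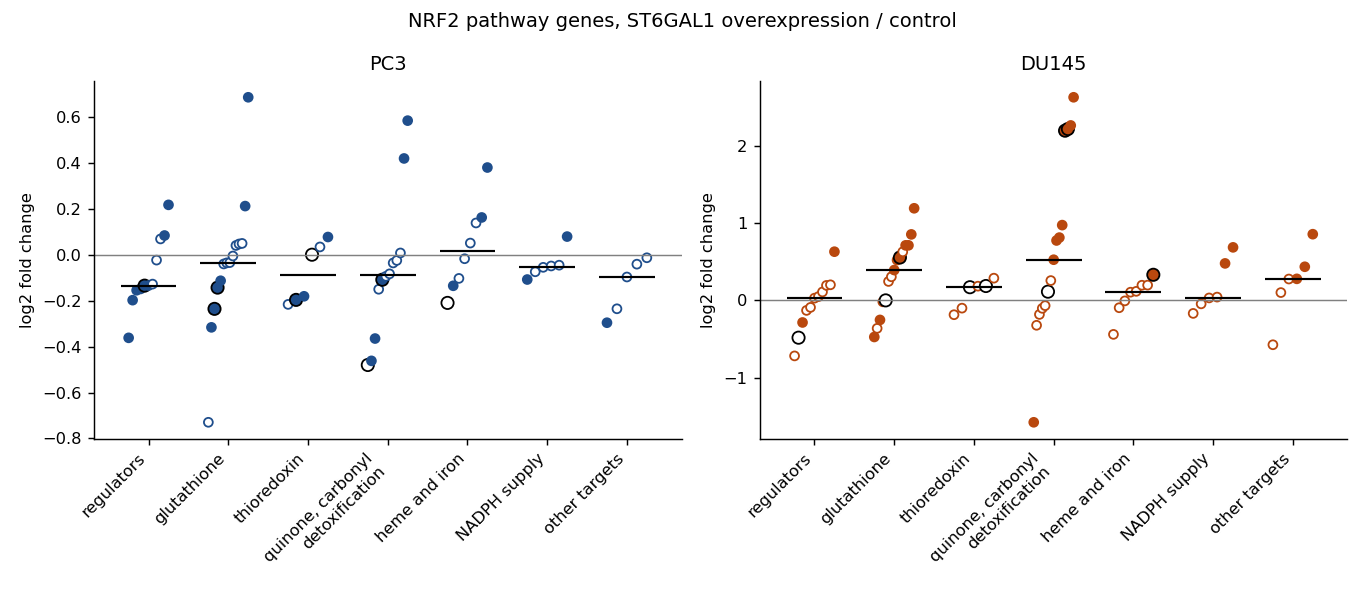
Log2 fold change with ST6GAL1 overexpression (vertical axes, different scales) of NRF2 pathway genes by class (horizontal axis) in PC3 (left) and DU145 (right), with 1 point per tested gene, the 9 genes outlined in black, filled points for an adjusted p under 0.05 and a bar at the class median. The PC3 values lie within 0.8 of 0, and in DU145 the aldo-keto reductases AKR1B10, AKR1C1, AKR1C3 and AKR1C2 lie above 2 and ALDH3A1 at −1.58.

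For NQO1, HMOX1 and KEAP1, the genes with the most similar pattern were sought among 11234 genes by Pearson's r of log2 normalized CPM over the 11 libraries, with the mean of each line removed. They were CDK5RAP1, PRDX3 and FAM200B for NQO1 (r = 0.97, 0.95 and 0.95), ALG2, INTS4 and PABIR2 for HMOX1 (0.91, 0.91 and 0.90), and SNAPC2, MIIP and CLUH for KEAP1 (0.99 each). The libraries share their line, depth and GC bias, and the values are a description only. AKR1C1 was below the minimum of 5 CPM set for this.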

How the data were processed

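RNA was sequenced as 75 bp single reads. Per the paper's methods the authors trimmed with Cutadapt, mapped to hg38 with HISAT2 and counted with featureCounts, and they deposited raw counts per Entrez gene. The annotation and strand setting are not given in the sources used here, so overlapping genes are not separated. Identifiers were matched to RefSeq (97.7%).

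Counts were fitted in edgeR 4.0.16 (R 4.3.3) with filterByExpr defaults, TMM factors and the robust quasi-likelihood test, separately for each line, for the 2 control groups, and over 11 libraries for the difference between the lines. Benjamini-Hochberg adjustment covered all genes tested. Thresholds were an adjusted p of 0.05 and, where named, a log2 fold change of 0.58. Standard errors were derived by dividing the log2 fold change by the square root of F. Alternatives were limma-voom (limma 3.58.1), DESeq2 1.42.0, other scalings and filters, a replicate block, each library left out and, chosen after the values were seen, removal of the trend on transcript GC content. The fits were tested on simulated data.

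The members, gene lists and tests were chosen with earlier results of these data known. Named pathway genes were NFE2L2, BACH1, AKR1C2, AKR1C3 and the 3 with the smallest adjusted p in each direction past the fold threshold with at least 5 CPM, and other antioxidant genes the 2 with the smallest. For the difference between the lines the fold threshold was not applied in this choice. DU145 overexpression replicate 1 was not analysed here. No pair of replicate libraries agreed within sampling noise.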

Additional observations from a re-analysis of the deposited data

Results flagged for a closer look

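For 5 of the 9 genes the change with ST6GAL1 overexpression differed between DU145 and PC3 by an interaction term in edgeR's quasi-likelihood fit over all 11 libraries. The change in DU145 minus that in PC3, on the log2 scale, was 2.74 for AKR1B10 (adjusted p = 5.30e-05), 2.69 for AKR1C1 (adjusted p = 2.57e-05), 0.78 for GCLC (adjusted p = 2.00e-06), 0.54 for HMOX1 (adjusted p = 0.0108) and 0.38 for SRXN1 (adjusted p = 0.00393). AKR1B10 was below the expression filter in the fit of PC3 alone, so its PC3 change was not tested by itself. Each of the 5 remained past the threshold when any 1 of the 11 libraries was left out, with a highest adjusted p of 0.0452, for HMOX1.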

How the results depend on the processing

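The 5 members past the test in PC3, 4 in DU145, 5 in the difference and 8 in the control comparison stayed within 1.5 times of these counts with limma-voom, DESeq2, other scalings and other filters. The replicate numbers gave little sign of pairing in PC3, with correlations of −0.01, 0.04 and 0.04 for like numbers and −0.05 to 0.01 for unlike ones. In DU145 they were 0.10 and 0.31 for like numbers and −0.31 to 0.25 for unlike ones. With 2 overexpression libraries the DU145 values mirror each other, so they cannot settle whether those samples are paired. With the replicate block the genes past both the adjusted p and the fold threshold were 740 in PC3, 1517 in DU145 and 9197 between controls (728, 1222 and 9205 without). Those past the adjusted p alone in the difference were 3551 (2949 without), and 7 of the 9 genes passed in DU145 (TXNRD1, SRXN1 and KEAP1 added). The share of all genes past the adjusted p alone in DU145 with the block is not given, so the 7 are not read as a result. TXNRD1 in PC3, near 0, changed sign with limma-voom (−0.000106), no composition factor (−0.0118) and no filter (−0.00494), and ranged from −0.0177 to 0.0203 with a library left out. GCLM in DU145 was −0.00217 with limma-voom, −0.00579 with DESeq2, −0.00573 with RLE factors, −0.00194 with upper quartile factors, −0.0301 with no composition factor, −0.0121 with no filter, −0.00162 with a minimum of 10 counts, −0.00781 with the replicate block and −0.0753 with the GC trend removed, and −0.0982 to 0.0885 with a library left out. Leaving out 1 library, genes past both thresholds ranged from 830 to 2072 in DU145, and genes past the adjusted p alone from 2287 to 5161 in the difference, both highest without DU145 overexpression replicate 3. Members past the test in the difference ranged from 5 to 9, and the KEAP1 difference from −0.97 to 0.0568. The causes were not tested. With 2 DU145 overexpression libraries, leaving out 1 assumes that the other varies like the controls. AKR1B10 and AKR1C1 had 20 counts or fewer in each PC3 library, which limits their PC3 values.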

Other observations

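Antioxidant genes that are not usual NRF2 targets were examined as well, from a list of 20. In PC3, 19 could be tested, and 6 rose and 2 fell, 42.1% against 37.3% of all genes. SESN3, a sestrin that restrains mTORC1, was the only one past the fold threshold, from 20, 23 and 20 counts in control to 61, 43 and 45 in overexpression libraries (log2 fold change 1.25, adjusted p = 3.12e-05). It lies below the minimum of 5 CPM there and was chosen after its values were seen. In DU145, 19 could be tested, and 3 rose and 4 fell, 36.8% against 20.1% of all genes, with SESN3 and CAT past the fold threshold. SESN3 had 79.3 to 87.3 normalized CPM in control and 134 and 129 in overexpression libraries of DU145, a log2 fold change of 0.67 (adjusted p = 2.89e-05), and of 0.64 without overexpression replicate 2. CAT, the catalase that breaks down hydrogen peroxide, had 82.3 to 88.05 against 137 and 126, a log2 fold change of 0.65 (adjusted p = 4.64e-05), and 0.575, under the fold threshold, without overexpression replicate 2, where PC3 gave 0.01 (adjusted p = 0.787). The difference between the lines was 0.63 for CAT (adjusted p = 5.62e-06).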
